A study of Mus musculus with 8 samples.

Results

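Metallothioneins and zinc transporters are described here as 10 genes chosen by symbol from the 21878 genes of the deposited table. They are the metallothioneins Mt1 and Mt2, their transcriptional activator Mtf1, the zinc exporters Slc30a1 and Slc30a4, and the zinc importers Slc39a1, Slc39a6, Slc39a8, Slc39a10 and Slc39a14. All 10 were found in the table, and all 10 passed the filter of a mean of at least 0.5 RPKM (reads per kilobase of gene, normalised to library depth) over the libraries. The series holds 8 mouse RNA-seq libraries, 4 labelled Ad-KLK8 and 4 labelled Ad-control. Every library is labelled as pulmonary endothelial cells of lung, and no strain, age, time or dose is given in the labels. The prefix Ad is not expanded there. The series title names KLK8, a serine protease of the kallikrein family that cells secrete, and lung injury in endotoxemia. Nothing in the labels says whether the replicates are separate cultures, animals or preparations. The p-values below therefore refer to the spread among these 8 samples, part or all of which may be technical.

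Zinc is held in cells within narrow limits by proteins that bind it and by transporters that move it across membranes. Metallothioneins are small cysteine-rich proteins that bind zinc and copper. MTF1 is a zinc-finger transcription factor that senses free zinc and binds short DNA motifs called metal response elements, through which it activates metallothionein genes and Slc30a1. The ZnT proteins (SLC30 family) lower cytosolic zinc by moving it out of the cell or into vesicles, and the ZIP proteins (SLC39 family) move zinc into the cytosol. In lung endothelial cells metallothionein is known as a zinc store from which nitric oxide can release the metal.

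The gene named in the treatment did not part the groups. Klk8 stood at 1159, 3263, 1354 and 1276 RPKM in the libraries labelled Ad-KLK8, against 1135, 1403, 1232 and 1422 RPKM in those labelled Ad-control (two-sided exact permutation p = 0.657, with a smallest possible p of 0.0286). The sources used here do not name the species of any introduced KLK8, so every direction below rests on the labels. The 2 groups nevertheless differed across most genes, as 77.7% of the 11998 tested genes passed an adjusted p of 0.05 with limma. The label of endothelial cells was not met by most of the listed markers. Of 15 endothelial markers, 11 lay under the filter, among them Pecam1 with 13 reads over the 4 libraries labelled Ad-KLK8 and 35 over those labelled Ad-control, Cdh5 with 3 reads in Ad-KLK8 and 24 in Ad-control, and Cldn5 with 3 reads in Ad-KLK8 and 1 in Ad-control. The 4 that were tested were Kdr, Egfl7, Esam and Eng. Esam averaged 12.9 RPKM in Ad-KLK8 and 20.8 RPKM in Ad-control, and Egfl7 4.59 RPKM in Ad-KLK8 and 4.54 RPKM in Ad-control. Eng averaged 2.45 RPKM in Ad-KLK8 and 3.36 RPKM in Ad-control, and Kdr 0.622 RPKM in Ad-KLK8 and 1.43 RPKM in Ad-control. As deposited 3 were lower in Ad-KLK8 and Egfl7 did not pass the test, and after median-of-ratios scaling 2 were lower. The summed endothelial list ranged from 19.71 to 23.52 RPKM in the libraries labelled Ad-KLK8, against 29.39 to 32.61 RPKM in those labelled Ad-control. The fibroblast list summed to 3849 to 3974 RPKM in the libraries labelled Ad-KLK8 and 1754 to 1996 RPKM in those labelled Ad-control, with 9 of its 10 genes higher and 1 lower in Ad-KLK8. The mesothelial list summed to 568.8 to 619.7 RPKM in Ad-KLK8, against 176.2 to 232.9 RPKM in Ad-control, with 5 of 7 genes higher, 1 lower and 1 not past the test. Among all tested genes 25.7% were higher and 52.0% lower in Ad-KLK8. The smooth muscle list ranged from 804.6 to 1096 RPKM in Ad-KLK8 and from 698 to 1024 RPKM in Ad-control, and the leukocyte list from 18.16 to 20.86 RPKM in Ad-KLK8 and from 27.25 to 49.72 RPKM in Ad-control. Of 10 lung epithelial markers 8 lay under the filter, and Scgb1a1 had no read. The part of these markers in the results below was not tested.

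In the deposited values every one of the 10 zinc genes was called, and the groups did not overlap for any of the 10. By limma, 4 were higher in the libraries labelled Ad-KLK8 (Slc30a1, Slc39a1, Slc39a8 and Slc39a10) and 6 were lower (Mt1, Mt2, Mtf1, Slc30a4, Slc39a6 and Slc39a14). These counts stand against a background in which 77.7% of all tested genes were called, 25.7% higher and 52.0% lower, and in which 72.2% had groups that did not overlap. Only Slc39a10 changed by at least 2-fold, and 12.2% of all tested genes did so. The median size of the log2 difference, whatever its sign, was 0.68 over the 10 genes and 0.39 over all tested genes. The 10 genes and the gene lists below were chosen with earlier results of these data known. Setting them beside all tested genes, here and below, is therefore a description and not a test. In bulk RNA, fewer cells of a type and less RNA per cell cannot be told apart.

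**Figure D1:**
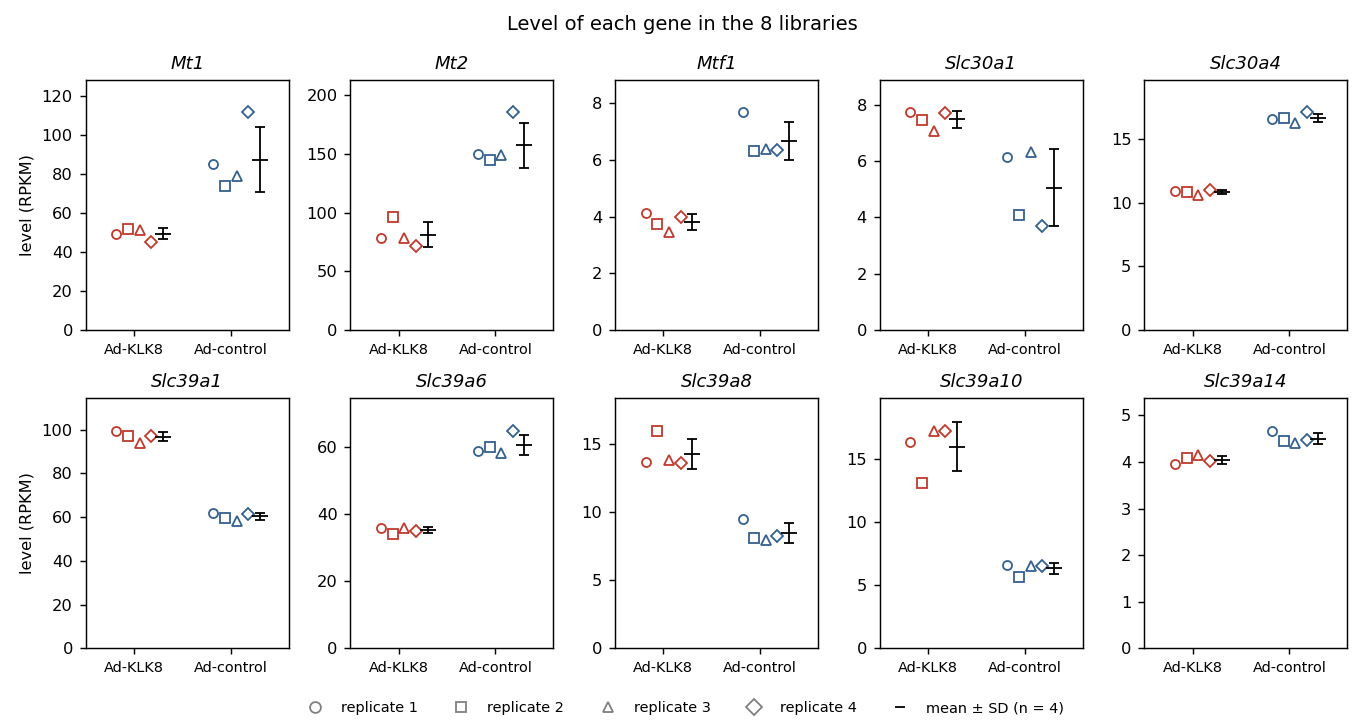
Deposited RPKM of the 10 genes in each of the 8 libraries, with the group mean and SD (n = 4 each), Ad-KLK8 left of Ad-control and each panel starting at 0. The groups do not overlap in any panel, and Slc39a14 shows the narrowest gap, with 3.95 to 4.16 RPKM in Ad-KLK8 and 4.41 to 4.67 RPKM in Ad-control.

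The scale used between libraries matters for the small differences. In the deposited values the median log2 difference of all tested genes was −0.19, and after median-of-ratios scaling, which sets the median gene of each library to a common level, it was 0.02. Higher genes made up 33.0% of all calls as deposited and 51.7% after that scaling. The rescaled fit called 77.3% of all tested genes, 39.9% higher and 37.3% lower. Of the 10 zinc genes it called 9, with 4 higher and 5 lower, and only Slc39a14 lost its call and changed direction. Relative to the median gene of all tested genes, all 10, Slc39a14 included, lay on the same side under both scalings.

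**Figure D2:**
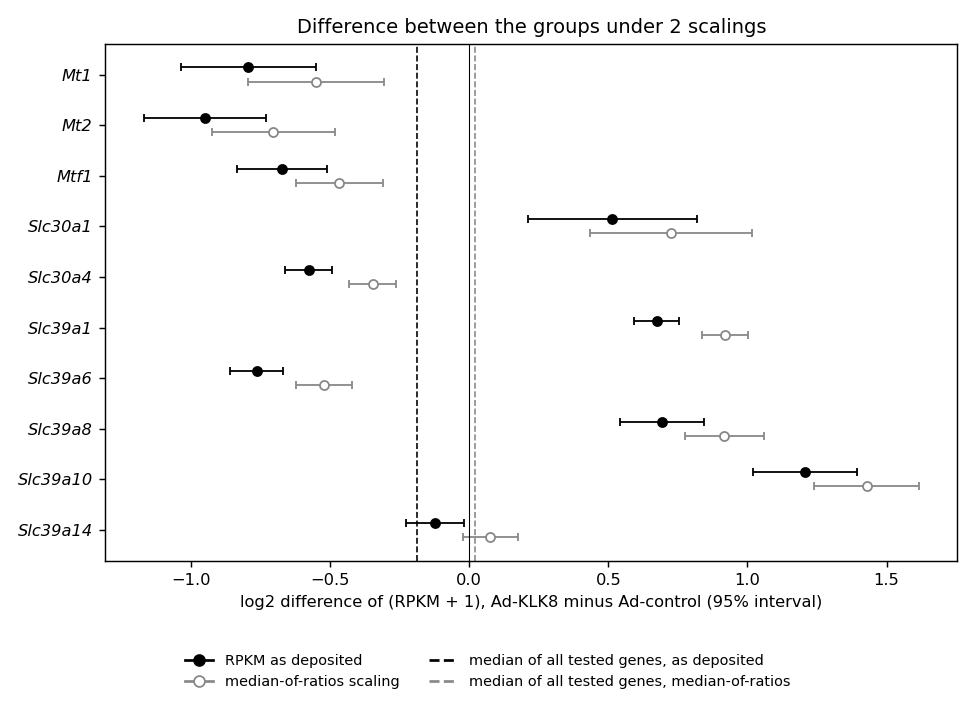
Log2 difference of (RPKM + 1), Ad-KLK8 minus Ad-control, with its 95% interval for each of the 10 genes, under the deposited scaling (filled) and median-of-ratios scaling (open); dashed lines give the median of all tested genes at −0.19 and 0.02. Of the 10 genes, 9 stay on the same side of 0 under both scalings, and Slc39a14 moves from −0.12 to 0.08.

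The metallothionein genes lie side by side on mouse chromosome 8, in the order Mt4, Mt3, Mt2 and Mt1. Their upstream sequences are shown because MTF1 is known to act on these genes through metal response elements near their starts, and that of Slc30a1 is shown because it is a known MTF1 target that differed in the other direction. Each is the 250 bases before the RefSeq start (build GRCm38.p6), written 5′ to 3′ on the gene's strand. The end of the 50 bases after the start occurred in a known transcript of Mt1 and of Slc30a1, but not of Mt2. Such an occurrence does not show that a start is the one used in these cells. The starts of Mt1 and Slc30a1 are therefore uncertain too, and that of Mt2 lacks even this occurrence. Capitals mark matches to TGCGCNC or TGCACNC on either strand, and no matches overlap.
Mt1, chr8:94178839-94179088, plus strand: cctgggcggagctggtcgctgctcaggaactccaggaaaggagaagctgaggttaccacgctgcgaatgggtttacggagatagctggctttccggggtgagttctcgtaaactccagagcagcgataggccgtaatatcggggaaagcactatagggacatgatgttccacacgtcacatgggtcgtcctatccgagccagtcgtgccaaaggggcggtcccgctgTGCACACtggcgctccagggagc
Mt2, chr8:94172368-94172617, plus strand: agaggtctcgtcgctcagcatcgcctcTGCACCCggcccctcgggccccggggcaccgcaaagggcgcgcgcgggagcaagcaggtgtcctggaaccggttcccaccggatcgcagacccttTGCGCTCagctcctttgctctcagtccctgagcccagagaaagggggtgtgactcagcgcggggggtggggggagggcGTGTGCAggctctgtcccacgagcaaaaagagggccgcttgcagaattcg
Slc30a1, chr1:191906531-191906780, plus strand: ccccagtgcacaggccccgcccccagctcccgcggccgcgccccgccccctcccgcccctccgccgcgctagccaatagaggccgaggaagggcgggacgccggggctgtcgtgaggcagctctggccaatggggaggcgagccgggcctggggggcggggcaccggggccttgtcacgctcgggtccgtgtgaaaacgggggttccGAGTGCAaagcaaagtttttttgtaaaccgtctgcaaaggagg
Mt1, the first 29 bases from its start, chr8:94179089-94179117, plus strand: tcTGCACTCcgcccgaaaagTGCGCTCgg

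Such matches are common in promoter windows. Over 300 bases (250 before and 50 after the start), 25.7% of the 32851 RefSeq promoter windows held at least 1 match, 7.1% at least 2 and 2.0% at least 3. For 8 of the 10 genes 10 windows were kept, and 5 of these windows, of 5 genes, had a match. Base composition, which differs between windows, was not allowed for. No window was kept for Slc39a6 or Slc39a14. The search for windows of the 10 genes left out 1 chromosome, whereas the background kept it. Whether this accounts for either missing gene was not examined. Nothing is read for either gene. Mt2 had 4 matches (3 before the RefSeq start and 1 after it), Mt1 had 3 (1 before and 2 after), Slc30a4 had 3 and Slc30a1 had 2. Which start these cells used was not examined, so a match after the RefSeq start may still lie before the start in use. Bases beyond the 300 were not searched. Slc39a8 had 1 in its second window and none in its first. Mtf1, Slc39a1 and both windows of Slc39a10 had none. Genes with matches therefore included 3 that fell (Mt1, Mt2 and Slc30a4) and 2 that rose (Slc30a1 and Slc39a8) in the libraries labelled Ad-KLK8. A match is a description of the letters and not a binding site.

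Mt2 and Mt1 were the first and second of the 10 genes by RPKM in Ad-control, and both fell in the libraries labelled Ad-KLK8. Mt2 stood at 78.0, 96.5, 78.0 and 71.7 RPKM in the libraries labelled Ad-KLK8, against 149.9, 144.5, 149.1 and 185.3 RPKM in those labelled Ad-control. Its lowest Ad-control library was above its highest Ad-KLK8 library, and Ad-control replicate 4 stood above the rest of its group. The mean was 81.1 ± 10.7 RPKM in Ad-KLK8 and 157.2 ± 18.9 RPKM in Ad-control (SD, n = 4 each), a ratio of 0.516. The log2 difference was −0.95 (SE 0.0986, 95% interval −1.17 to −0.73, limma adjusted p = 6.91e-06), and −0.70 after median-of-ratios scaling (limma adjusted p = 7.7e-05).

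Mt1 stood at 49.3, 51.7, 51.4 and 45.2 RPKM in the libraries labelled Ad-KLK8, against 85.1, 73.6, 79.0 and 111.5 RPKM in those labelled Ad-control. As with Mt2, Ad-control replicate 4 was the highest and Ad-KLK8 replicate 4 the lowest library. The mean was 49.4 ± 2.99 RPKM in Ad-KLK8 and 87.3 ± 16.8 RPKM in Ad-control (SD, n = 4 each), a ratio of 0.566. Its log2 difference was −0.79 (SE 0.109, 95% interval −1.04 to −0.55, limma adjusted p = 6.13e-05), and −0.55 after median-of-ratios scaling (limma adjusted p = 0.00093). Each value rests on 643 to 1376 reads for Mt1 and 746 to 1673 reads for Mt2. These are similar genes, and the sources used here do not say how reads that match both were assigned, so the division between them is uncertain.

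The sum of both genes does not depend on how reads were divided between them, apart from gene length. That sum came to 127.3, 148.2, 129.5 and 116.9 RPKM in Ad-KLK8 libraries, against 235.0, 218.1, 228.1 and 296.8 RPKM in those labelled Ad-control. After median-of-ratios scaling it averaged 141.6 ± 13.6 in Ad-KLK8 and 223.7 ± 33.2 in Ad-control (SD, n = 4 each). The ratio of Mt2 to Mt1 was 1.64 ± 0.156 in Ad-KLK8 and 1.82 ± 0.133 in Ad-control (SD, n = 4 each), with overlapping groups. The remaining family members were hardly detected. Mt3, known from brain, had 0 reads over the 4 libraries labelled Ad-KLK8 and 5 over those labelled Ad-control, and Mt4, known from squamous epithelium, had 0 reads in Ad-KLK8 and 1 in Ad-control. A count of 0 in a library allows up to 0.160 to 0.190 RPM, which covers counting error only.

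**Figure D3:**
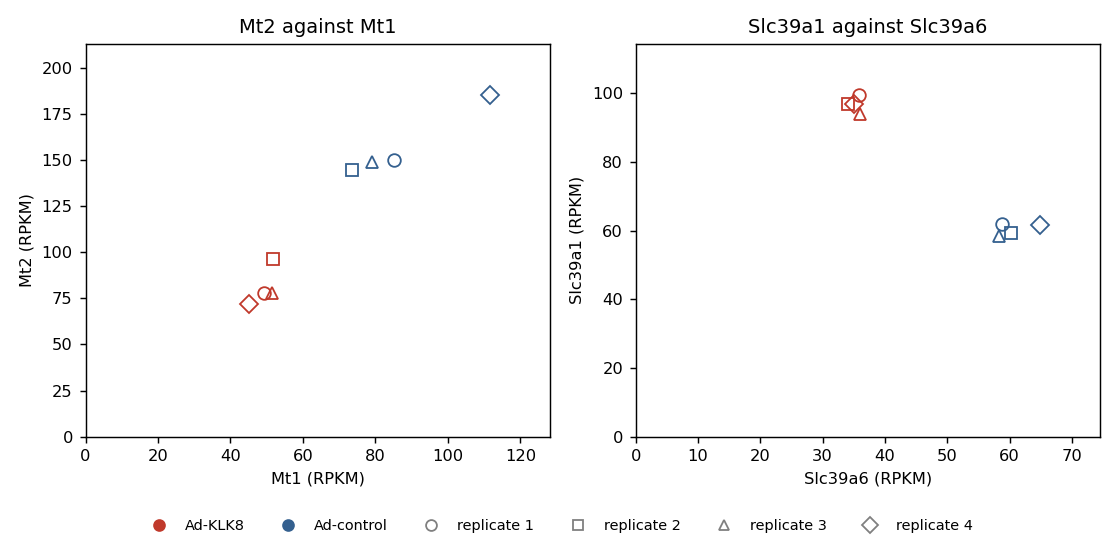
Mt2 against Mt1 (left) and Slc39a1 against Slc39a6 (right), in RPKM, 1 point per library, with colour for the group and shape for the replicate number. Both metallothioneins are lower in all 4 Ad-KLK8 libraries, whereas Slc39a1 is higher and Slc39a6 lower in all 4.

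Genes with the pattern most like that of each metallothionein were sought over the 8 libraries by Pearson's r of log2(RPKM + 1). The 3 nearest to Mt1 were Mboat2 (r = 0.995), Snai1 (r = 0.994) and Armcx5 (r = 0.993), and those nearest to Mt2 were Gmeb1 (r = 0.998), Ppp3cb (r = 0.997) and Slx4ip (r = 0.996). These 8 points fall into the labelled groups, so such an r is high for any pair of genes that differ the same way between them. With the group means removed, Mt1 and Mt2 had an r of 0.796, which placed Mt2 at rank 340 among the genes most like Mt1. Over the same 8 libraries, the nearest to Mt1 by that measure were Bnip3l (r = 0.987), Gzf1 (r = 0.981) and Armcx5 (r = 0.980). Those nearest to Mt2 were Pabpc1 (r = 0.980), Zfr2 (r = 0.980) and Mturn (r = 0.977). Between the groups, as deposited, Bnip3l and Zfr2 were higher in Ad-KLK8 (log2 difference 0.21 and 0.32). Mturn was not called, and Gzf1, Armcx5 and Pabpc1 were lower. Each r is among the highest of 11998 genes over 8 libraries and does not by itself show a link.

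Mtf1, the metal-sensing activator of the metallothionein genes, was lower in the libraries labelled Ad-KLK8. It stood at 4.11, 3.73, 3.44 and 3.97 RPKM in these libraries, against 7.68, 6.31, 6.39 and 6.34 RPKM in those labelled Ad-control. Ad-control replicate 1 stood above the rest of its group, and the groups did not overlap. The mean was 3.81 ± 0.295 RPKM in Ad-KLK8 and 6.68 ± 0.669 RPKM in Ad-control (SD, n = 4 each), a ratio of 0.571. On the log2 scale the difference was −0.67 (SE 0.0721, 95% interval −0.83 to −0.51, limma adjusted p = 8.77e-06), and −0.47 after median-of-ratios scaling (limma adjusted p = 0.000132). Each value rests on 487 to 983 reads.

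Further genes known as MTF1 targets, from a list of 6 that leaves out the metallothioneins and Slc30a1, all fell in the deposited values, where 52.0% of all tested genes were lower. The list's median log2 difference was −1.42, beside −0.19 over all tested genes, and after median-of-ratios scaling, where 37.3% of all tested genes were lower, 5 were lower and Csrp1 did not pass the test. Slc40a1, named for its low level, averaged 0.363 ± 0.0893 RPKM in Ad-KLK8 and 0.953 ± 0.383 RPKM in Ad-control (SD, n = 4 each). It passed the filter only through the group where it was higher, and it is part of these counts and medians. Pgf, a growth factor of the VEGF family, had 0.992, 0.464, 0.693 and 0.490 RPKM in the libraries labelled Ad-KLK8, against 27.4, 15.5, 22.8 and 50.2 RPKM in those labelled Ad-control. Its log2 difference was −4.06 (limma adjusted p = 2.67e-07), and Ad-control replicate 4 was again the highest library. Gclc, the catalytic subunit of glutathione synthesis, averaged 4.87 ± 0.453 RPKM in Ad-KLK8 and 17.1 ± 2.1 RPKM in Ad-control (SD, n = 4 each, limma adjusted p = 4.72e-08). Selenoh, a nuclear selenoprotein, averaged 6.79 ± 0.767 RPKM in Ad-KLK8 and 17.5 ± 4.0 RPKM in Ad-control (SD, n = 4 each, limma adjusted p = 1.48e-05). Ndrg1, a stress-responsive gene that is also induced by hypoxia, averaged 21.4 ± 1.19 RPKM in Ad-KLK8 and 84.5 ± 36.6 RPKM in Ad-control (SD, n = 4 each, limma adjusted p = 1.89e-05). Several of these genes answer to other regulators as well, so their count does not show MTF1 activity.

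Slc30a1 and Slc30a4, exporters of the ZnT family, moved in opposite directions. Slc30a1 encodes ZnT1, the exporter of the plasma membrane, and was higher in the libraries labelled Ad-KLK8, where Mt1 and Mt2 were lower. It stood at 7.74, 7.46, 7.08 and 7.70 RPKM in the libraries labelled Ad-KLK8, against 6.15, 4.08, 6.33 and 3.68 RPKM in those labelled Ad-control. The 4 Ad-KLK8 libraries lay close together (coefficient of variation 4.06%), whereas Ad-control replicates 1 and 3 stood above replicates 2 and 4 (27.1%). The mean was 7.496 ± 0.304 RPKM in Ad-KLK8 and 5.06 ± 1.37 RPKM in Ad-control (SD, n = 4 each), a ratio of 1.48. In the fit the log2 difference was 0.51 (SE 0.136, 95% interval 0.21 to 0.82, limma adjusted p = 0.0053), and 0.73 after median-of-ratios scaling (limma adjusted p = 0.00047).

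Slc30a4 encodes ZnT4, a vesicular exporter that is mutated in the lethal milk mouse. It stood at 11.0, 10.8, 10.7 and 11.0 RPKM in the libraries labelled Ad-KLK8, against 16.6, 16.7, 16.3 and 17.1 RPKM in those labelled Ad-control. Both groups were tight and lay far apart. The mean was 10.9 ± 0.156 RPKM in Ad-KLK8 and 16.7 ± 0.332 RPKM in Ad-control (SD, n = 4 each), a ratio of 0.651. The log2 difference was −0.58 (SE 0.0376, 95% interval −0.66 to −0.49, limma adjusted p = 1.91e-07), and −0.35 after median-of-ratios scaling (limma adjusted p = 1.25e-05).

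Of the 11 genes of the ZnT list, 6 passed the filter, and of these 2 were higher, 1 was lower and 3 did not pass the test in the deposited values. Among all tested genes 25.7% were higher and 52.0% lower there. The list's median log2 difference was 0.04, beside −0.19 over all tested genes. After median-of-ratios scaling 5 were higher and 1 was lower, where 39.9% of all tested genes were higher and 37.3% lower. The median was then 0.26, beside 0.02 over all tested genes. Slc30a5, which forms a Golgi exporter with Slc30a6, averaged 18.3 ± 0.737 RPKM in Ad-KLK8 and 13.8 ± 0.869 RPKM in Ad-control (SD, n = 4 each), a log2 difference of 0.39 (limma adjusted p = 4.43e-05). Its partner Slc30a6 averaged 8.93 ± 0.582 RPKM in Ad-KLK8 and 9.28 ± 0.749 RPKM in Ad-control (SD, n = 4 each, limma adjusted p = 0.505). After median-of-ratios scaling Slc30a6 was called higher, with overlapping groups (log2 difference 0.17, limma adjusted p = 0.0196). Slc30a7 and Slc30a9 did not pass the test as deposited (limma adjusted p = 0.0532 and 0.0506) and were higher after median-of-ratios scaling. The genes under the filter were Slc30a2, Slc30a3, Slc30a8, Slc30a10 and Tmem163, of which Slc30a8, the exporter of insulin granules, had no read in any library. Summed over the 11 genes the family came to 76.4 ± 1.71 RPKM in Ad-KLK8 and 76.8 ± 3.05 RPKM in Ad-control (SD, n = 4 each), with overlapping groups. After median-of-ratios scaling the sum was 82.95 ± 1.66 in Ad-KLK8 and 70.2 ± 2.03 in Ad-control (SD, n = 4 each), and the groups did not overlap.

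Slc39a10 was the importer with the largest difference among the 10 genes under both scalings. It encodes ZIP10, a plasma membrane importer whose gene is known in mouse and zebrafish to be repressed by MTF1 when zinc is high. It stood at 16.4, 13.1, 17.2 and 17.2 RPKM in the libraries labelled Ad-KLK8, against 6.62, 5.67, 6.50 and 6.52 RPKM in those labelled Ad-control. The replicate numbered 2 was the lowest in each group, and the gap between the groups was wider than either group's own range. The mean was 16.0 ± 1.95 RPKM in Ad-KLK8 and 6.33 ± 0.44 RPKM in Ad-control (SD, n = 4 each), a ratio of 2.52. Its log2 difference was 1.21 (SE 0.0844, 95% interval 1.02 to 1.39, limma adjusted p = 3.27e-07), and 1.43 after median-of-ratios scaling (limma adjusted p = 1.26e-07). These values rest on 670 to 2413 reads.

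Slc39a6 encodes ZIP6, the closest relative of ZIP10, with which it is known in mouse cells to form a complex, and it went the other way. It stood at 35.88, 33.99, 35.99 and 35.03 RPKM in the libraries labelled Ad-KLK8, against 58.8, 60.2, 58.3 and 64.9 RPKM in those labelled Ad-control. Each group was narrow beside the gap between them. The mean was 35.2 ± 0.93 RPKM in Ad-KLK8 and 60.5 ± 2.99 RPKM in Ad-control (SD, n = 4 each), a ratio of 0.582. On the log2 scale the difference was −0.76 (SE 0.0428, 95% interval −0.86 to −0.67, limma adjusted p = 6.64e-08), and −0.52 after median-of-ratios scaling (limma adjusted p = 2.15e-06).

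Slc39a1 encodes ZIP1, a widely expressed importer of the plasma membrane. It stood at 99.48, 96.95, 94.11 and 97.05 RPKM in the libraries labelled Ad-KLK8, against 62.05, 59.44, 58.34 and 61.56 RPKM in those labelled Ad-control. The lowest Ad-KLK8 library was well above the highest Ad-control library. The mean was 96.9 ± 2.2 RPKM in Ad-KLK8 and 60.4 ± 1.75 RPKM in Ad-control (SD, n = 4 each), a ratio of 1.61. In the fit the log2 difference was 0.67 (SE 0.0365, 95% interval 0.59 to 0.76, limma adjusted p = 5.17e-08), and 0.92 after median-of-ratios scaling (limma adjusted p = 1.2e-08). Its values rest on 2213 to 4343 reads.

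Slc39a8 encodes ZIP8, which carries zinc, manganese and cadmium and is known as an NF-kB-responsive gene. It stood at 13.7, 16.0, 13.8 and 13.6 RPKM in the libraries labelled Ad-KLK8, against 9.52, 8.09, 7.94 and 8.28 RPKM in those labelled Ad-control. Ad-KLK8 replicate 2 stood above the rest of its group, and the groups did not overlap. The mean was 14.3 ± 1.13 RPKM in Ad-KLK8 and 8.46 ± 0.723 RPKM in Ad-control (SD, n = 4 each), a ratio of 1.69. The log2 difference was 0.69 (SE 0.0679, 95% interval 0.54 to 0.84, limma adjusted p = 4.41e-06), and 0.92 after median-of-ratios scaling (limma adjusted p = 4.14e-07).

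Slc39a14 encodes ZIP14, the nearest relative of ZIP8, which also carries iron and manganese and is known in mouse liver as an acute-phase gene. It stood at 3.95, 4.08, 4.16 and 4.02 RPKM in the libraries labelled Ad-KLK8, against 4.67, 4.45, 4.41 and 4.48 RPKM in those labelled Ad-control. The deposited groups did not overlap, but the gap was small. The mean was 4.05 ± 0.0869 RPKM in Ad-KLK8 and 4.50 ± 0.114 RPKM in Ad-control (SD, n = 4 each), a ratio of 0.9. Its log2 difference was −0.12 (SE 0.047, 95% interval −0.23 to −0.02, limma adjusted p = 0.033). After median-of-ratios scaling it was 0.08 (limma adjusted p = 0.14), with scaled levels of 4.33, 4.40, 4.49 and 4.37 in Ad-KLK8 and 4.21, 4.12, 4.02 and 4.12 in Ad-control. The call was also lost when any of Ad-KLK8 replicates 1, 2 or 4 or Ad-control replicates 1 or 4 was left out (limma adjusted p = 0.0797, 0.0511, 0.0733, 0.079 and 0.0503). The deposited difference stayed between −0.13 and −0.11 when each library was left out in turn. Because its sign depends on the scaling, no direction is read for this gene.

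Of the 14 genes of the ZIP list, 11 passed the filter, and of these 6 were higher, 2 were lower and 3 did not pass the test in the deposited values, where 25.7% of all tested genes were higher. The median log2 difference was 0.21, beside −0.19 over all tested genes. After median-of-ratios scaling, which gave 39.9% of all tested genes as higher, 8 were higher, 1 was lower and 2 did not pass, with a median of 0.41. The other rises were in Slc39a3, Slc39a11 and Slc39a13. Slc39a3, a plasma membrane importer, averaged 7.12 ± 0.24 RPKM in Ad-KLK8 and 4.48 ± 0.513 RPKM in Ad-control (SD, n = 4 each), a log2 difference of 0.57 (limma adjusted p = 2.48e-05). Slc39a13, an importer of intracellular vesicles known from connective tissue development, averaged 17.3 ± 1.0 RPKM in Ad-KLK8 and 11.6 ± 1.17 RPKM in Ad-control (SD, n = 4 each), a log2 difference of 0.54 (limma adjusted p = 3.31e-05). Slc39a11 averaged 4.48 ± 0.381 RPKM in Ad-KLK8 and 3.73 ± 0.17 RPKM in Ad-control (SD, n = 4 each, limma adjusted p = 0.0107).

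Slc39a7, which releases zinc from the endoplasmic reticulum, was the most abundant importer per length in both groups. It averaged 126.7 ± 3.46 RPKM in Ad-KLK8 and 122.4 ± 1.22 RPKM in Ad-control (SD, n = 4 each), a difference that did not pass the test as deposited (limma adjusted p = 0.214) and was higher after median-of-ratios scaling. Slc39a4, the importer of the intestine, had 5.38, 6.51, 5.41 and 5.76 RPKM in the libraries labelled Ad-KLK8, against 7.21, 4.17, 7.35 and 4.03 RPKM in those labelled Ad-control. Its groups overlapped (limma adjusted p = 0.773), and Ad-control replicates 1 and 3 stood above replicates 2 and 4, as they did for Slc30a1. Slc39a9 averaged 13.1 ± 0.33 RPKM in Ad-KLK8 and 12.2 ± 0.568 RPKM in Ad-control (SD, n = 4 each, limma adjusted p = 0.0619) and was higher after median-of-ratios scaling. Slc39a2, Slc39a5 and Slc39a12 lay under the filter.

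Summed over the 14 genes, importer RPKM was 341.0 ± 4.28 in Ad-KLK8 and 300.6 ± 3.9 in Ad-control (SD, n = 4 each), and after median-of-ratios scaling 370.1 ± 7.26 in Ad-KLK8 and 274.9 ± 3.48 in Ad-control (SD, n = 4 each). The make-up of that sum differed. Slc39a1 held 28.4 ± 0.353% of it in Ad-KLK8 and 20.1 ± 0.402% in Ad-control (SD, n = 4 each). Slc39a6 held 10.3 ± 0.274% in Ad-KLK8 and 20.1 ± 0.889% in Ad-control (SD, n = 4 each). Slc39a10 held 4.68 ± 0.564% in Ad-KLK8 and 2.1 ± 0.126% in Ad-control (SD, n = 4 each). Shares of a sum do not depend on the scale between libraries.

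**Figure D4:**
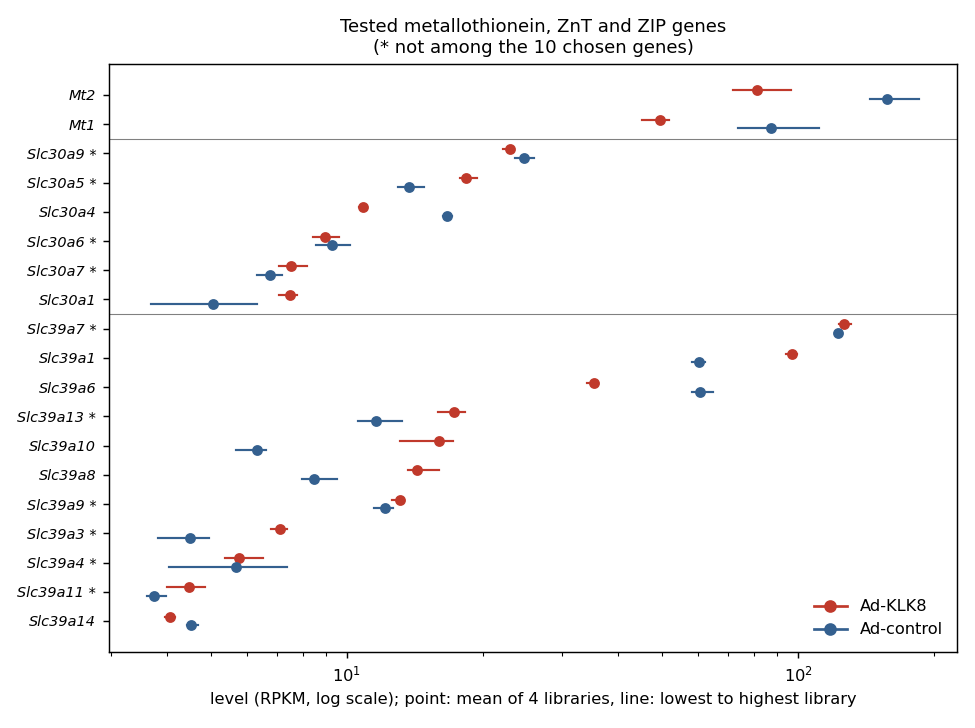
Level of each tested metallothionein, ZnT and ZIP gene in RPKM on a log axis, with the mean of 4 libraries as a point and the lowest to highest library as a line, Ad-KLK8 (red) above Ad-control (blue) for each gene; a star marks genes outside the 10. Slc39a10 shows the widest separation among the importers, at means of 16.0 RPKM in Ad-KLK8 and 6.33 RPKM in Ad-control, while the lines of Slc30a6, Slc30a7, Slc39a4, Slc39a7 and Slc39a9 overlap.

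By RPKM, which is per gene length, the order of the 10 genes differed between the groups. In the libraries labelled Ad-KLK8, Slc39a1 led, and its range overlapped that of Mt2. Mt1, Slc39a6 and then Slc39a10 followed, and Slc39a10 overlapped with Slc39a8. Slc30a4 and Slc30a1 came next, and Slc39a14 and Mtf1 overlapped at the low end. In the libraries labelled Ad-control, Mt2 led, followed by Mt1, and then by Slc39a6 and Slc39a1, which overlapped at means of 60.5 and 60.4 RPKM. Slc30a4 and Slc39a8 followed, and Mtf1, Slc39a10, Slc30a1 and Slc39a14 each overlapped with the next in order.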

How the data were processed

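The authors deposited RPKM values in 1 table, a row per gene and a column per library. The tools listed, per the submitters' processing notes, are DESeq, Cufflinks, SAMtools, HISAT2 and Trimmomatic, without version or role. The build listed there is GRCh38, whereas the table's identifiers are those of mouse. How reads of similar or overlapping genes were assigned, and whether counting used strand, were not given in the sources used here. Per the labels' protocols, RNA was extracted with TRIzol and made into stranded mRNA libraries. The deposited values were whole multiples of 1 read, within 0.001 read, in 17461 of 17461 genes above 0, and the reads were recovered from them. They came to 17785884 to 18702922 per library labelled Ad-KLK8 and 15771803 to 16761367 per library labelled Ad-control.

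Values were tested two-sided as log2(RPKM + 1) with limma 3.58.1 (R 4.3.3; eBayes with a trend). The 11998 genes whose mean reached 0.5 RPKM entered the fit, with group as the only term and p-values adjusted after Benjamini and Hochberg over all of them at 0.05. A second count required a 2-fold change. Log2 differences on this scale understate the change of low genes. Python 3.11.15, scipy 1.17.1 and pandas 2.3.3 served for tables and the exact test, and the fit was tested on simulated data. In that simulation few genes changed, as many up as down, so it does not bear on the choice of scaling. Groups and replicate numbers are those of the labels. The members and gene lists were chosen with earlier results of these data known. The text names every member, the genes of the zinc transporter families, and up to 4 called genes with the smallest adjusted p of each further list; other genes of those lists are said where they are named. Selenoh was matched by its Entrez identifier. The 3 genes most like each metallothionein were taken by Pearson's r. Promoter windows came from RefSeq, build GRCm38.p6. Libraries of a group differed by more than sampling noise and were kept apart. The alternatives were other pseudocounts (0.1 and 0.5), no filter or minimums of 1 and 5 RPKM, TPM, 3 other scalings, a robust prior, voom on the recovered reads with and without scaling, a block for the replicate number, and the omission of each library in turn. A fit with closely similar libraries averaged was added after seeing the data.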

Additional observations from a re-analysis of the deposited data

Results flagged for a closer look

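Of 22 groups of 4 libraries checked, 5 held a library whose gap to the nearest of the others, over the whole range of the group, passed Dixon's 95% critical value for 4 samples, which chance alone gives in about 1 in 20 groups. Mt2 was highest in Ad-control replicate 4, at 185.3 RPKM (gap over range 0.868). Mtf1 was highest in Ad-control replicate 1, at 7.68 RPKM (0.945). Slc39a10 was lowest in Ad-control replicate 2, at 5.674 RPKM (0.877). Slc39a8 was highest in Ad-KLK8 replicate 2, at 15.98 RPKM (0.915). Klk8 was highest in the same library, at 3263 RPKM (0.907). Ad-KLK8 replicate 2 also stood apart from its group over all genes, where chi-square over its degrees of freedom was 19.0 to 20.7 against the other Ad-KLK8 libraries, and 2.16 to 2.71 among those. The calls of Mt2, Mtf1, Slc39a8 and Slc39a10 held when each of the 8 libraries was left out in turn.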

How the results depend on the processing

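Of 219 log2 differences of the 10 genes recomputed under 22 alternatives, 208 kept their direction and their side of the threshold, and of 110 counts of called genes 105 stayed within 1.5 times the deposited count, though the share of higher genes among all calls was 33.0% as deposited and 51.7% after median-of-ratios scaling. The log2 difference of Slc39a14 changed direction under upper-quartile scaling (0.0751, limma adjusted p = 0.152), median-of-ratios scaling (0.0766, limma adjusted p = 0.14), quantile normalization (0.16, limma adjusted p = 0.00689) and voom with median-of-ratios scaling (0.0944, limma adjusted p = 0.0764), which are all alternatives that move the median gene. It lost its call with the replicate block (−0.12, limma adjusted p = 0.0783), with similar libraries averaged (−0.12, limma adjusted p = 0.165) and without 5 of the 8 libraries in turn, and was not tested at a minimum of 5 RPKM. The count of called ZnT genes, 3 in the deposited values, was 7 with no filter, 6 under upper-quartile, median-of-ratios and voom with median-of-ratios scaling, and 5 under quantile normalization. The other 9 genes were called in the same direction under every alternative, with log2 differences of −0.87 to −0.55 for Mt1, −1.03 to −0.70 for Mt2, −0.81 to −0.40 for Mtf1, 0.40 to 0.85 for Slc30a1 and 1.14 to 1.57 for Slc39a10. Leaving out 1 library gave 8943 to 9397 called genes and 9 to 10 of the 10 zinc genes. With the replicate number as a block 9170 genes and 9 of the 10 were called. Same-numbered libraries did not deviate together (r of −0.0905, −0.0656, 0.0106 and −0.0481), and differently numbered ones gave −0.0828 to 0.0956. No pairing by number was thus seen in these values, and the labels do not say whether a number marks a shared preparation. The block changed no other zinc gene's call. Mt3, Mt4 and the transporters under 0.5 RPKM rest on few reads and entered only the fit with no filter, which called 3 of 4 metallothioneins and 9 of 13 importers.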

Other observations

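Genes of other metals were counted in the same fit, in which 25.7% of all tested genes were higher and 52.0% lower as deposited, and 39.9% higher and 37.3% lower after median-of-ratios scaling. Of 10 tested copper genes, 4 were higher, 3 lower and 3 did not pass as deposited, and after median-of-ratios scaling 6 were higher, 3 lower and 1 did not pass. Cox17, a copper chaperone of the mitochondria, averaged 42.1 ± 1.4 RPKM in Ad-KLK8 and 70.1 ± 4.49 RPKM in Ad-control (SD, n = 4 each, limma adjusted p = 3.05e-07). Sco1, which also serves copper delivery to cytochrome oxidase, averaged 2.78 ± 0.143 RPKM in Ad-KLK8 and 4.31 ± 0.26 RPKM in Ad-control (SD, n = 4 each, limma adjusted p = 1.82e-05). Ccs, the copper chaperone of superoxide dismutase, averaged 23.5 ± 1.39 RPKM in Ad-KLK8 and 16.5 ± 1.23 RPKM in Ad-control (SD, n = 4 each, limma adjusted p = 2.88e-05). Commd1 averaged 6.87 ± 0.459 RPKM in Ad-KLK8 and 9.58 ± 0.339 RPKM in Ad-control (SD, n = 4 each, limma adjusted p = 2.94e-05).

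Of 14 tested iron genes, 2 were higher, 9 lower and 3 did not pass as deposited, and after median-of-ratios scaling 4 were higher, 5 lower and 5 did not pass. These shares of lower genes lie near those over all tested genes. The lower genes include Slc40a1, which passed the filter only through Ad-control. Slc25a37, which carries iron into mitochondria, averaged 13.5 ± 1.93 RPKM in Ad-KLK8 and 45.3 ± 1.26 RPKM in Ad-control (SD, n = 4 each, limma adjusted p = 3.48e-08), and its relative Slc25a28 averaged 18.7 ± 1.53 RPKM in Ad-KLK8 and 32.5 ± 2.05 RPKM in Ad-control (SD, n = 4 each, limma adjusted p = 1.14e-06). The ferritin light chain Ftl1 averaged 1194 ± 54 RPKM in Ad-KLK8 and 2319 ± 193 RPKM in Ad-control (SD, n = 4 each, limma adjusted p = 5.96e-07). Pcbp1, an iron chaperone, averaged 162.7 ± 3.43 RPKM in Ad-KLK8 and 199.8 ± 3.18 RPKM in Ad-control (SD, n = 4 each, limma adjusted p = 2.03e-05), and it was not called after median-of-ratios scaling. The 2 higher genes, named after their values were seen, were Ncoa4 and the ferritin heavy chain Fth1, which averaged 3985 ± 240 RPKM in Ad-KLK8 and 2321 ± 349 RPKM in Ad-control (SD, n = 4 each, limma adjusted p = 6.16e-05). Both ferritins have near-identical copies in the genome, and their reads are uncertain.

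Mt1 and Mt2 are also known as glucocorticoid-responsive genes. Of 7 tested genes of a list of such genes, which holds no metallothionein, 5 were lower, 1 was higher and 1 did not pass, where 52.0% of all tested genes were lower. After median-of-ratios scaling 5 were lower and 2 were higher, where 37.3% of all tested genes were lower. Errfi1, a feedback inhibitor of the EGF receptor, averaged 7.13 ± 0.702 RPKM in Ad-KLK8 and 35.4 ± 2.26 RPKM in Ad-control (SD, n = 4 each, limma adjusted p = 1.81e-09). Per1, a clock gene, averaged 4.83 ± 0.174 RPKM in Ad-KLK8 and 12.0 ± 0.675 RPKM in Ad-control (SD, n = 4 each, limma adjusted p = 1.46e-08). Fkbp5, a co-chaperone of the glucocorticoid receptor, averaged 4.31 ± 0.302 RPKM in Ad-KLK8 and 11.5 ± 0.772 RPKM in Ad-control (SD, n = 4 each, limma adjusted p = 2.89e-08). Tsc22d3, a mediator of glucocorticoid action on leukocytes, averaged 3.12 ± 0.296 RPKM in Ad-KLK8 and 8.50 ± 0.493 RPKM in Ad-control (SD, n = 4 each, limma adjusted p = 5.2e-08). The 1 higher gene, named after its values were seen, was Klf9, at 42.8 ± 0.607 RPKM in Ad-KLK8 and 28.7 ± 3.63 RPKM in Ad-control (SD, n = 4 each, limma adjusted p = 4.26e-05).

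The split of Ad-control replicates 1 and 3 from replicates 2 and 4, seen in Slc30a1 and Slc39a4, recurred in genes picked after their values were seen. Cp, a copper-binding ferroxidase, had 28.2 and 28.3 RPKM in Ad-control replicates 1 and 3 and 12.9 and 14.5 RPKM in replicates 2 and 4. Slc40a1, the iron exporter, had 1.246 and 1.313 RPKM in replicates 1 and 3 and 0.708 and 0.547 RPKM in replicates 2 and 4. Over all genes, chi-square over its degrees of freedom was 2.54 between Ad-control replicates 1 and 3, against 6.73 to 11.4 for the other pairs of that group.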
